A study of Mus musculus with 4 samples.

Results

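The unfolded protein response and the secretory machinery of the endoplasmic reticulum (ER) were examined in mouse lung group 2 innate lymphoid cells (ILC2s) through 43 genes chosen by name. They encode ER chaperones and folding enzymes, the protein translocation channel and signal peptidase, ER-associated degradation factors, and the stress sensors with their transcription factors and targets. The members were found as rows of the deposited tables whose gene name equals a listed symbol, and all 43 were present among 55401 gene models. Ddit3 was listed under 2 identifiers, and the second stood at 0.16 and 0.01 FPKM (fragments per gene scaled to transcript length and to the mapped fragments of the library) with Ang II and at 0.01 FPKM in both IL-33 libraries and was not used. ILC2s are lymphocytes without antigen receptors that secrete type 2 cytokines. ILC2s were purified from C57BL/6 lungs and kept for 6 h either with IL-33 plus angiotensin II (Ang II), the main active peptide of the renin-angiotensin system, or with IL-33 alone, so that IL-33, the alarmin that activates these cells, was present in both groups. Each group has 2 libraries. The labels give 500 lysed cells per condition and do not say whether the 2 libraries of a group had separate lysates. Neither a group without IL-33 nor one with Ang II alone was analysed here.

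Secreted proteins enter the ER through the SEC61 channel, lose their signal peptide, and are folded by the chaperone BiP, by the lectins calnexin and calreticulin and by disulfide isomerases. When unfolded proteins accumulate, the sensors IRE1, ATF6 and PERK start the unfolded protein response: IRE1 splices Xbp1 mRNA, ATF6 is cut to release a transcription factor, and PERK phosphorylates eIF2 and thereby favours translation of ATF4. Their targets include the chaperones and degradation factors, and, downstream of ATF4, amino acid synthesis genes and Ddit3, which encodes CHOP. Professional secretory lymphocytes such as plasma cells depend on the XBP1 arm.

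Several members carry the DNA elements through which this response is known to act. Promoter windows of RefSeq (GRCm38.p6, from 250 bases before to 50 bases after the annotated start) were found for 35 of the 43 members and searched on both strands. A member counts as matched if any window under its name matched, while the shares of all windows count single windows, so these are unlike measures. The ER stress element, CCAAT and CCACG with 9 bases of any kind between them, which binds NF-Y together with ATF6 or XBP1, had an exact match in 8 of the 35 (Calr, Canx, Creld2, Dnajc3, Hsp90b1, Hspa5, Pdia6 and Syvn1), and in 0.119% of all 32851 windows. The shorter ER stress element II, ATTGG and CCACG with 1 base between them, matched in 2 members (Dnajb11 and Herpud1) and in 0.0365% of all windows. The C/EBP-ATF composite element TGATGNAA, bound by ATF4 and CHOP, matched in 4 members (Asns, Chac1, Herpud1 and Trib3) and in 3.97% of all windows. No match of these motifs shared bases with another in the windows printed here. The 5 windows shown are those of Hspa5, Creld2 and Canx, which share the first element while their expression values differ, of Herpud1, which carries the other 2, and of Asns. They are written 5′ to 3′ on the strand of the gene, with the matches in capitals.
Hspa5 (chr2:34771840-34772139, plus strand): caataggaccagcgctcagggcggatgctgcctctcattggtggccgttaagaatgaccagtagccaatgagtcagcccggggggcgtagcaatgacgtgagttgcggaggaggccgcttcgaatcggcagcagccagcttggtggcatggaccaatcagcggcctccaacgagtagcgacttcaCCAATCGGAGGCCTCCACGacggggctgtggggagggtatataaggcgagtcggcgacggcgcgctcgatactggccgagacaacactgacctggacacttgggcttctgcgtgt
Creld2 (chr15:88819396-88819695, plus strand): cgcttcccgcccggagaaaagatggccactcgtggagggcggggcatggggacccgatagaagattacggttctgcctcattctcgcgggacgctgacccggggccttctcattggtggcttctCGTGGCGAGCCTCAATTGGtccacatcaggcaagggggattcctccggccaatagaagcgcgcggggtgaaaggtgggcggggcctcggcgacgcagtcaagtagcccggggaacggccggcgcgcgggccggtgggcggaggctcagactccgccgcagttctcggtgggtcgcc
Canx (chr11:50325624-50325923, minus strand): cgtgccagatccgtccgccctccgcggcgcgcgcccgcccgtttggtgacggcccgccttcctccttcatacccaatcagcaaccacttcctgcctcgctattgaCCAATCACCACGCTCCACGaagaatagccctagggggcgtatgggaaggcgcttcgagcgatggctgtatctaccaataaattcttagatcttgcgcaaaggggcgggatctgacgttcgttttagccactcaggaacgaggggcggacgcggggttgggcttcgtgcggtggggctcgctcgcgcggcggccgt
Herpud1 (chr8:94386179-94386478, plus strand): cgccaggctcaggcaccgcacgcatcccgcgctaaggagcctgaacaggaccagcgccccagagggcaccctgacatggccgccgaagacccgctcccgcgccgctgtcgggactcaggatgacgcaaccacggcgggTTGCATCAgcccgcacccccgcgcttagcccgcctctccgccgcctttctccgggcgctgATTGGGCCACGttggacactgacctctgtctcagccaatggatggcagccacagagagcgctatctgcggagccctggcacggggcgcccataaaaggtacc
Asns (chr6:7693160-7693459, minus strand): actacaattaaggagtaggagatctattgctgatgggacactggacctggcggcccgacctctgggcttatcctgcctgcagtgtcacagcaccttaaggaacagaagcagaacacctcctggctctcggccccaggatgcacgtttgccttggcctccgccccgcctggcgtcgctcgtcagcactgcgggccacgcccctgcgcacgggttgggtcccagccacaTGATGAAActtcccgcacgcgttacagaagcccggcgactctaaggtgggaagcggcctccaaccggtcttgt
The Hspa5 match begins 65 bases before the start and that of Canx 145 bases before it. The Creld2 match lies on the opposite strand and begins 126 bases before the start. The composite element of Asns begins 23 bases before the start. A match is a string of letters and says nothing of binding in these cells.

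The FPKM values sum to between 394808 and 431014 per library. The 2 IL-33 libraries were nearly alike: log2(FPKM + 1) correlated at r = 0.994 across the 9215 genes that averaged 1 FPKM or more and were tested. Their spread in low genes was 1.10 times the counting noise at an estimated depth. That depth came from this same pair, by how often still lower genes were at 0 in only 1 of its libraries. Extra variation in the pair would lower the depth and the ratio, so the ratio is no independent check. At the same depth the ratio was 24.8 for the 2 Ang II libraries, whose r was 0.568. Because the IL-33 libraries differed by about this estimate of the noise, their average entered the tests as 1 sample, which sets n = 2 with Ang II against n = 1. Genes defining ILC2s were present in all 4 libraries: Gata3 stood at 185 and 129.8 FPKM with Ang II against 104 and 108 FPKM with IL-33, and Il1rl1, which encodes the IL-33 receptor, at 43.5 and 78.7 against 58.5 and 58.4 FPKM. Among the 12 ILC2 genes Thy1 stood at or below 0.09 FPKM in every library. The 12 summed to 2604 and 2375 FPKM with Ang II against 2270 and 2286 FPKM with IL-33. Of the 11 tested ILC2 genes, 4 were higher in both Ang II libraries (1 by at least 2-fold) and 0 lower. Other secretory cells are a point of reference for ER genes, and their markers were uneven. The summed level of 14 plasma and B cell genes was 104 and 14.5 FPKM with Ang II against 47.9 and 45.2 FPKM with IL-33. Tnfrsf17 and Derl3 were at 0 throughout and Jchain and Mzb1 at or below 0.15 FPKM. The 4 of the 14 that were tested summed to 103 and 11.1 FPKM against 44.8 and 42.1 FPKM. Of these 4, 1 was at least 2-fold higher in both Ang II libraries and 1 at least 2-fold lower, beside 8.81% and 17.3% of all tested genes. The other 2 had 1 Ang II library above and 1 below the IL-33 values. The summed level of 12 airway and alveolar epithelial genes was 88.9 and 200.8 against 405 and 395 FPKM. Of these, Sftpb, Sftpd, Scgb3a1, Krt8 and Krt18 were at 0 throughout and all 6 tested genes were lower in both Ang II libraries (2 by at least 2-fold). That of 12 myeloid genes was 2093 and 998 against 2346 and 2303 FPKM, with Itgax at 0. Of 9 tested myeloid genes, 6 were lower in both and 2 higher (2 and 1 by at least 2-fold). The 9 T cell genes summed to 926 and 455 FPKM against 1263 and 1260 FPKM, and all 8 tested were lower in both (5 by at least 2-fold). Of all tested genes, 33.5% were lower in both and 24.4% higher. Haemoglobin genes took 0.897% and 0.401% of all FPKM with Ang II against 5.83% and 5.78% with IL-33. The part of these transcripts in the results was not tested, and in such bulk libraries fewer cells of a type and less RNA per cell cannot be told apart.

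As a whole the secretory genes were abundant, and their differences ran both ways. Of 43 members, 40 averaged 1 FPKM or more and were tested, while Hyou1, Sel1l and Chac1 fell below it. The members took 1.11% and 1.54% of all FPKM in the Ang II libraries and 1.21% and 1.26% in the IL-33 libraries. Among tested members 15 (37.5%) lay in the top 10% of genes in every library, a place held by 6.25% of all tested genes. The median log2 fold change of the members, Ang II plus IL-33 over IL-33, was -0.01 on the log2(FPKM + 1) scale, where the differences of low genes come out too small, and that of all tested genes was -0.00. In the separate Ang II libraries the members' median difference stood at -0.15 and 0.19. The median level over the members was 99.4 and 120 FPKM with Ang II against 68.5 and 69.9 FPKM with IL-33, which are levels of different middle genes.

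Single members nonetheless lay far from their IL-33 values. Of the 40, 3 lay at least 2-fold above both IL-33 values in both Ang II libraries on that scale (Dnajb9, Derl1 and Ern1), a position held by 8.81% of all tested genes. A further 4 lay at least 2-fold below (Hspa13, Canx, Ssr4 and Atf6), against 17.3% of all tested genes. The members' shares were thus near or below the background. Among the 33 members averaging 20 FPKM or more, 2 lay at least 2-fold above and 2 at least 2-fold below, beside 8.16% and 10.2% of all such genes. With any gap counted, 15 members were higher in both and 12 lower, beside 24.4% and 33.5% of all tested genes, and 11 had one Ang II library above and the other below the IL-33 values. Of the 33 members averaging 20 FPKM or more, 12 (36.4%) were higher in both and 10 (30.3%) lower, beside 29.6% and 36.1% of all such genes. By limma, 0 of the 9215 genes passed a Benjamini-Hochberg adjusted p of 0.05 (0%), and the smallest adjusted p was 0.174. At an unadjusted p under 0.05 limma gave 1253 genes (13.6%), among them 4 members. Dnajb9 and Ern1 were higher (2.79% of all tested genes were higher at that p), and Hspa13 and Atf6 were lower (10.8% of all tested genes). The fit has 1 residual degree of freedom, which comes from the Ang II pair alone. With the IL-33 pair taken as 2 replicates it called 1547 genes (16.8%) and 4 of 40 members (10%), the same 4, and with the replicate number as a block as well it called 0. Without Ang II replicate 1, 9 members lay at least 2-fold above their IL-33 values and 6 at least 2-fold below, beside 26.7% and 25.9% of all tested genes. Without Ang II replicate 2 these counts were 5 and 11, beside 21.6% and 30.9%.

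**Figure D1:**
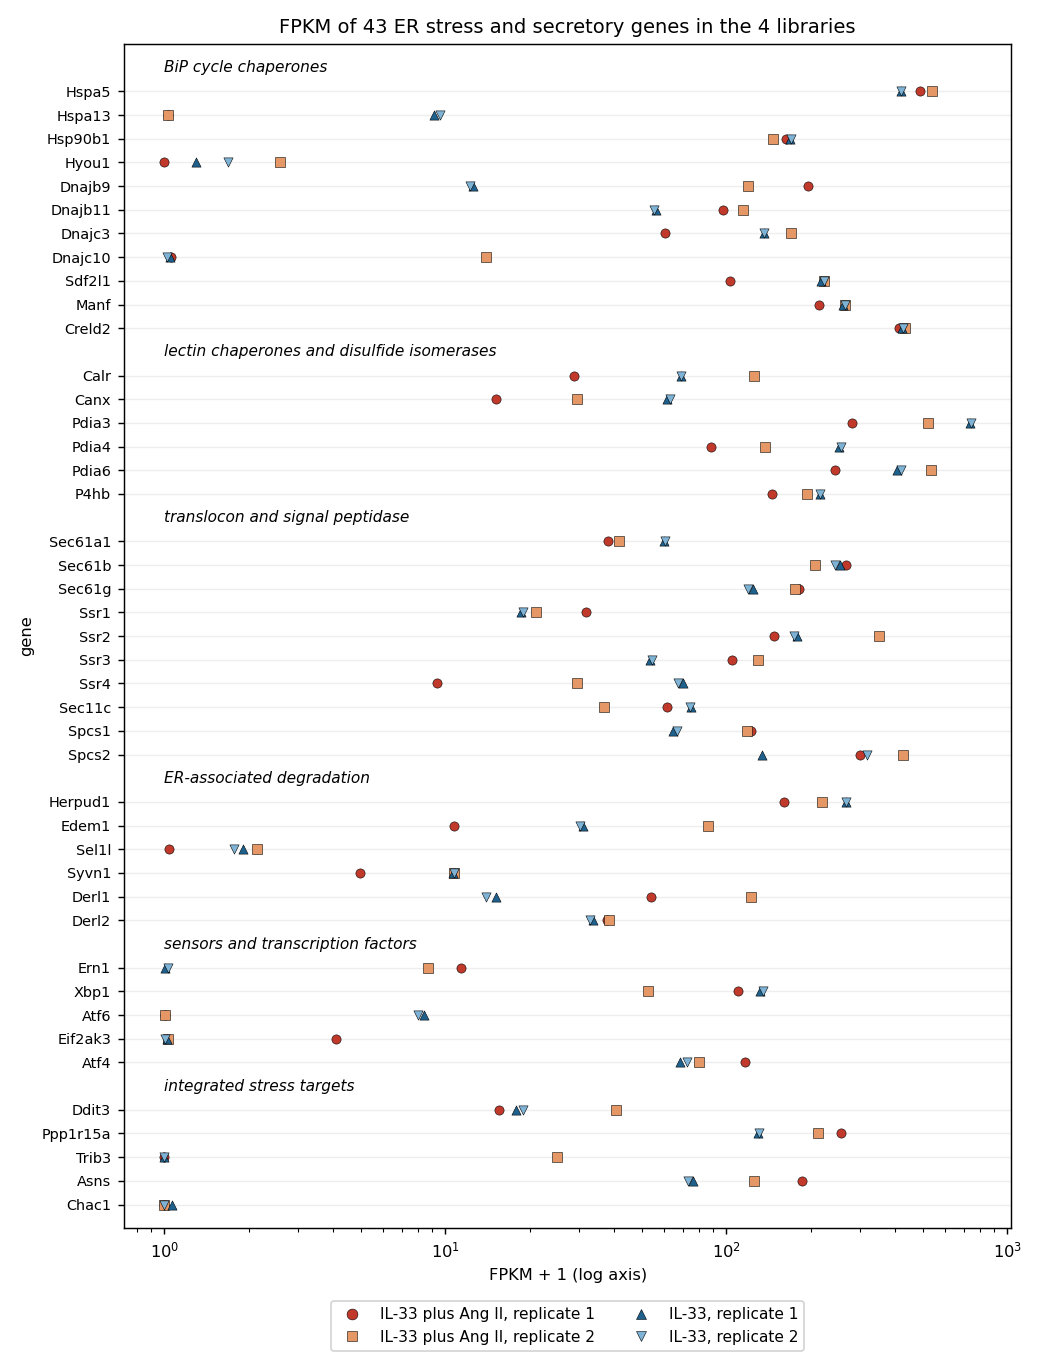
FPKM + 1 on a log axis for each of the 43 genes, grouped by role, with 1 marker per library (IL-33 plus Ang II replicates 1 and 2, then IL-33 replicates 1 and 2). The IL-33 markers lie almost on each other except for Spcs2, while the Ang II markers of Dnajb9, Derl1 and Ern1 stand to the right of them and those of Hspa13, Canx, Ssr4 and Atf6 to the left.

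The chaperones of the BiP cycle were led by abundant genes with nearly equal levels in both groups. Hspa5 (chromosome 2, 34771970 to 34777547, plus strand, mm10), which encodes BiP, the central ER chaperone and a standard readout of ER stress, stood at 490.3 and 538 FPKM with Ang II against 417 and 417 FPKM with IL-33. Both Ang II values lay above both IL-33 values, by a log2 fold change of 0.30 (SE 0.17, adjusted p = 0.775 by limma). Creld2, a secreted ER stress protein, stood at 411 and 431 FPKM with Ang II against 420.2 and 426 FPKM with IL-33. Manf, which encodes an ER-resident neurotrophic factor, stood at 212 and 264 FPKM against 259 and 263 FPKM. Hsp90b1, the gene of the ER HSP90 paralog GRP94, stood at 163 and 146 FPKM with Ang II against 167 and 169 FPKM with IL-33. For Creld2 and Manf the groups overlapped, and for Hsp90b1 the Ang II values were slightly lower. BiP's helpers differed more. Dnajb9 (chromosome 12, 44205559 to 44210326, minus strand), whose product ERdj4 is an XBP1 target that binds BiP and holds IRE1 inactive, stood at 195 and 119 FPKM with Ang II against 11.6 and 11.3 FPKM with IL-33. Its log2 fold change was 3.63 (SE 0.53), with a limma adjusted p of 0.240, and the 2 groups were far apart although the Ang II libraries differed from each other by 0.71 on the log2 scale. Dnajb11, which encodes ERdj3, stood at 96.4 and 114 FPKM with Ang II against 55.04 and 54.5 FPKM with IL-33 (limma log2 fold change 0.92, SE 0.28, adjusted p = 0.507). Both of its Ang II values were higher, though less than 2-fold above the IL-33 values in one library.

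Of the remaining genes of this group, several differed between the Ang II libraries. Dnajc3, which encodes the co-chaperone and PERK pathway inhibitor p58IPK, stood at 59.4 and 169 FPKM with Ang II against 135 and 136 FPKM with IL-33. Sdf2l1, part of a BiP-ERdj3 complex, stood at 102 and 223 FPKM against 217 and 222 FPKM. In both genes replicate 1 was low and replicate 2 was at or above the IL-33 level. Dnajc10, the gene of the disulfide reductase ERdj5, stood at 0.06 and 13.01 FPKM with Ang II against 0.05 and 0.02 FPKM with IL-33, so a single library carried its signal. Hspa13, which encodes an HSP70-like microsomal ATPase, stood at 0.03 FPKM in both Ang II libraries against 8.11 and 8.56 FPKM with IL-33 (limma log2 fold change -3.18, SE 0.29, adjusted p = 0.174). Hyou1, which encodes the nucleotide exchange factor GRP170, stood at 0 and 1.59 FPKM against 0.30 and 0.69 FPKM. The low Ang II values of Hspa13 are identical, so its p borrows its variance from the fit over all genes, and an overlapping model on the same strand, Gm15553, had 31.8 FPKM in Ang II replicate 1 and 0 in the other 3 libraries.

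Of the 6 lectin chaperones and disulfide isomerases, all averaging 20 FPKM or more, both Ang II values were lower for 4 and higher for 0, beside 36.1% lower and 29.6% higher of all genes at that level. Their median log2 fold change was -0.65 (-1.33 in replicate 1 and -0.33 in replicate 2), beside -0.15 for those genes. Canx, the gene of the membrane lectin chaperone calnexin, stood at 14.2 and 28.4 FPKM with Ang II against 60.5 and 61.9 FPKM with IL-33 (limma log2 fold change -1.56, SE 0.70, adjusted p = 0.691). Pdia4, the gene of ERp72, stood at 87.2 and 136 FPKM against 250.1 and 256 FPKM. Pdia3, the gene of ERp57, which works with both lectins, stood at 280.4 and 520.1 FPKM against 734 and 742 FPKM. These 3 genes had both Ang II values below the IL-33 values. P4hb, the gene of protein disulfide isomerase, stood at 144 and 193 FPKM with Ang II against 214 and 214 FPKM with IL-33. Pdia6, whose product tempers IRE1 and PERK signalling, stood at 243 and 534 FPKM against 403 and 417 FPKM. Calr, the gene of the soluble lectin calreticulin, stood at 27.8 and 124 FPKM against 67.96 and 68.1 FPKM. For Pdia6 and Calr replicate 1 lay below and replicate 2 above the IL-33 values. All 6 genes were higher in Ang II replicate 2 than in replicate 1, beside 46.0% of all genes averaging 20 FPKM or more. The summed level of the 6 was 797 and 1536 FPKM with Ang II against 1729 and 1759 FPKM with IL-33.

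The translocation and signal peptide genes did not differ as a block. All 10 members averaged 20 FPKM or more. Both Ang II values were higher for 4 of them (40%) and lower for 3 (30%), beside 29.6% and 36.1% of all genes at that level. The median log2 fold change was 0.42, beside -0.15 for those genes. The channel subunits diverged: Sec61a1, which encodes the pore, stood at 37.04 and 40.5 FPKM with Ang II against 58.9 and 59.4 FPKM with IL-33. Sec61g, which encodes the gamma subunit, stood at 180.4 and 174 FPKM against 124 and 118 FPKM. Sec61b, the gene of the beta subunit, stood at 265 and 207 FPKM against 253 and 242 FPKM. The pore gene was thus lower, the gamma gene higher, and the beta gene on both sides of its IL-33 values (log2 fold changes -0.60, 0.55 and -0.08). The difference between subunits was not tested.

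The translocon-associated protein complex, which assists the insertion of some signal peptides, showed the same unevenness. Ssr3, which encodes its gamma subunit, stood at 104 and 129 FPKM with Ang II against 52.4 and 53.3 FPKM with IL-33 (limma log2 fold change 1.11, SE 0.31, adjusted p = 0.466). Ssr4, the gene of its delta subunit, stood at 8.36 and 28.5 FPKM against 69.1 and 66.3 FPKM (limma log2 fold change -2.05, SE 1.12, adjusted p = 0.775). Ssr1, the gene of the alpha subunit, stood at 30.7 and 20.1 FPKM against 17.6 and 17.95 FPKM, and Ssr2, of the beta subunit, at 147 and 349 FPKM against 178 and 173 FPKM. Both Ang II values were higher for Ssr3 and Ssr1 and lower for Ssr4, and the groups overlapped for Ssr2. Among signal peptidase genes, Spcs1 stood at 122 and 118 FPKM with Ang II against 63.5 and 65.6 FPKM with IL-33 (limma log2 fold change 0.88, SE 0.23, adjusted p = 0.438). Sec11c, a catalytic subunit gene, stood at 60.5 and 35.9 FPKM against 74.03 and 73.1 FPKM. Spcs2 stood at 299.6 and 425 FPKM with Ang II against 133 and 316 FPKM with IL-33, the widest gap of any abundant member between the IL-33 libraries (2.38-fold). In that pair 13 of 2758 genes averaging 20 FPKM or more (0.471%) differed by more than 2-fold. The pseudogene Spcs2-ps, which can share reads with Spcs2, stood at 10.3 and 8.59 FPKM with Ang II against 21.9 and 21.6 FPKM with IL-33. Spcs1 shares bases with the opposite-strand gene Glt8d1 (16.2 and 2.31 against 12.5 and 12.7 FPKM), and whether the counting used strand is not given in the sources used here. In all, 10 members are overlapped by another model above 1 FPKM in some library. Same-strand models overlap Hspa13, Hsp90b1 (Gm25745, 339 and 249 against 291 and 277 FPKM) and Pdia4 (Mir704, 0.04 and 0.5 against 25.3 and 26.1 FPKM). Opposite-strand models also overlap Hsp90b1, Manf, Ssr2, Herpud1, Derl2, Ddit3 and Syvn1 (for Syvn1 Mrpl49, at 0.04 and 23.3 against 21.4 and 20.1 FPKM). The part of these models in the members' values was not tested.

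ER-associated degradation returns misfolded proteins to the cytosol for the proteasome, and here its members ran in different directions. Derl1 (chromosome 15, 57869502 to 57892448, minus strand), which encodes the retrotranslocation factor Derlin-1, stood at 52.8 and 121 FPKM with Ang II against 14.2 and 13.02 FPKM with IL-33 (limma log2 fold change 2.48, SE 0.81, adjusted p = 0.543). Both Ang II values were more than 2-fold above the IL-33 values, and the Ang II libraries were themselves more than 2-fold apart. Its relative Derl2 stood at 36.7 and 37.3 FPKM against 32.6 and 31.8 FPKM. Herpud1, which encodes a scaffold of the HRD1 ligase complex and is a frequent marker of the response, stood at 160.03 and 218 FPKM with Ang II against 265 and 267 FPKM with IL-33. Both of its values were lower (limma log2 fold change -0.51, SE 0.34, adjusted p = 0.775). Edem1, whose product marks misfolded glycoproteins, stood at 9.74 and 84.95 FPKM against 29.8 and 29.1 FPKM. Syvn1, the gene of the ubiquitin ligase HRD1, stood at 3.97 and 9.76 FPKM against 9.66 and 9.72 FPKM. Sel1l, which encodes the adaptor of that ligase, stood at 0.04 and 1.14 FPKM against 0.91 and 0.77 FPKM. In Edem1, Sel1l and Syvn1 one Ang II library lay below and the other above the IL-33 values, though for Syvn1 replicate 2 was above by little. All 5 tested degradation genes were higher in Ang II replicate 2 than in replicate 1, beside 51.2% of all tested genes.

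Of the 3 stress sensors, 2 stood at different ends. Ern1 (chromosome 11, 106394650 to 106487852, minus strand), which encodes IRE1 alpha, stood at 10.4 and 7.72 FPKM with Ang II against 0.01 and 0.03 FPKM with IL-33 (limma log2 fold change 3.29, SE 0.69, adjusted p = 0.367). Atf6 (chromosome 1, 170704674 to 170867771, minus strand) was the reverse, with 0.01 FPKM in both Ang II libraries against 7.39 and 6.97 FPKM with IL-33 (limma log2 fold change -3.02, SE 0.26, adjusted p = 0.174). As for Hspa13, the Ang II values of Atf6 are identical, so its SE and p borrow their variance from the fit over all genes. Eif2ak3, which encodes PERK, stood at 3.09 and 0.03 FPKM with Ang II against 0.02 and 0.01 FPKM with IL-33, so it counts as higher in both although replicate 2 was 0.01 FPKM above. These sensor values are low, and near-0 readings are frequent in these libraries: 6 of 40 tested members (15.0%) and 57.7% of all tested genes were under 1 FPKM in at least 1 library. Among 16 genes that cells in general use, 2 were, one of them Polr2a, the gene of the largest RNA polymerase II subunit, at 0.05 FPKM in both Ang II libraries against 5.64 and 6.37 FPKM with IL-33. The Polr2a values resemble those of Atf6 and Hspa13.

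The transcription factors of the response were abundant. Xbp1 stood at 109 and 51.6 FPKM with Ang II against 131 and 134 FPKM with IL-33 (limma log2 fold change -0.81, SE 0.72, adjusted p = 0.775), so both Ang II values were lower, though replicate 1 was close to the IL-33 level. Gene-level FPKM do not separate spliced from unspliced Xbp1, so the activity of IRE1 cannot be read from this value. Rtcb encodes the ligase that joins the cut Xbp1 mRNA and is named here after its values were seen. It stood at 41.02 and 20.02 FPKM with Ang II against 0.21 and 0.11 FPKM with IL-33. Rtcb comes from a list of sensor and eIF2 control genes described below, of which 13 were tested. Of these, 3 were higher in both (23.1%) and 7 lower (53.8%), beside 24.4% and 33.5% of all tested genes. By at least 2-fold, 1 was higher (7.69%) and 3 lower (23.1%), beside 8.81% and 17.3% of all. Atf4 stood at 115 and 79.1 FPKM with Ang II against 67.6 and 71.6 FPKM with IL-33 (limma log2 fold change 0.45, SE 0.42, adjusted p = 0.775). Both Ang II values were higher, replicate 2 by little. None of the 5 sensors and factors was higher in Ang II replicate 2 than in replicate 1, Atf6 being equal in both. Of all tested genes, 51.2% were higher in replicate 2.

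Among integrated stress targets, 2 of 4 tested genes lay higher in both Ang II libraries and 0 lower, beside 24.4% and 33.5% of all tested genes. Of the 4, 3 averaged 20 FPKM or more, where 29.6% of all genes were higher and 36.1% lower in both. Asns (chromosome 6, 7675169 to 7693254, minus strand), which encodes asparagine synthetase, an ATF4 target, stood at 185 and 125 FPKM with Ang II against 75.02 and 71.9 FPKM with IL-33 (limma log2 fold change 1.04, SE 0.42, adjusted p = 0.645). Ppp1r15a, which encodes GADD34, the phosphatase subunit that reverses eIF2 phosphorylation, stood at 256 and 212 FPKM against 128 and 130.3 FPKM (limma log2 fold change 0.84, SE 0.25, adjusted p = 0.499). Both genes were higher in each Ang II library than in IL-33, but neither passed the test. Ddit3 stood at 14.5 and 39.6 FPKM against 16.9 and 17.9 FPKM, with only replicate 2 higher, and it shares bases with the opposite-strand gene Mars1 (58.6 and 16.99 FPKM against 0.08 and 0). Trib3, which encodes a pseudokinase induced by CHOP, was listed at 0 in Ang II replicate 1, at 24.0 FPKM in replicate 2 and at 0 in both IL-33 libraries. Chac1, which encodes a glutathione-degrading enzyme, had a listed value of 0 in each Ang II library, against 0.07 and 0 FPKM with IL-33.

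Members with and without the promoter elements shown above lay on both sides of their IL-33 values. The 10 members with an ER stress element of either kind, all tested, had a median log2 fold change of -0.19, between -1.56 and 0.92, and 2 were higher and 3 lower in both. The 23 tested members with a window and neither element had a median of 0.46, with 12 higher and 5 lower in both. For comparison, 24.4% of the genes in the test lay above IL-33 in both Ang II libraries and 33.5% below. For genes averaging 20 FPKM or more the shares were 29.6% and 36.1%. Hspa5, Creld2 and Canx, whose windows share the first element, had log2 fold changes of 0.30, -0.01 and -1.56. Dnajb9 had a window but no match to any of the 3 motifs in it. These are descriptions, with no test.

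The Ang II libraries differed from each other in many members, which sets the error of the values above. Over the 40 tested members, the log2(FPKM + 1) values of Ang II replicates 1 and 2 had a Pearson r of 0.873 with each other, and of 0.828 and 0.796 with the IL-33 mean. Over all 9215 genes, which include many low values, these were 0.568, 0.556 and 0.566. The points of each correlation share their libraries and are genes, not replicates. The Ang II libraries were over 2-fold apart on that scale for 14 members (35%), against 55% of all tested genes. Among genes averaging 20 FPKM or more it was 30.3% of 33 members against 38.6% of 2646 genes. Of the 14 members, 12 were higher in replicate 2 and 2, Xbp1 and Eif2ak3, in replicate 1. Over all members replicate 2 was the higher for 62.5%, and over all tested genes for 51.2%. Among genes averaging 20 FPKM or more it was the higher for 66.7% of 33 members against 46.0% of 2646 genes. These differences were not tested.

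**Figure D2:**
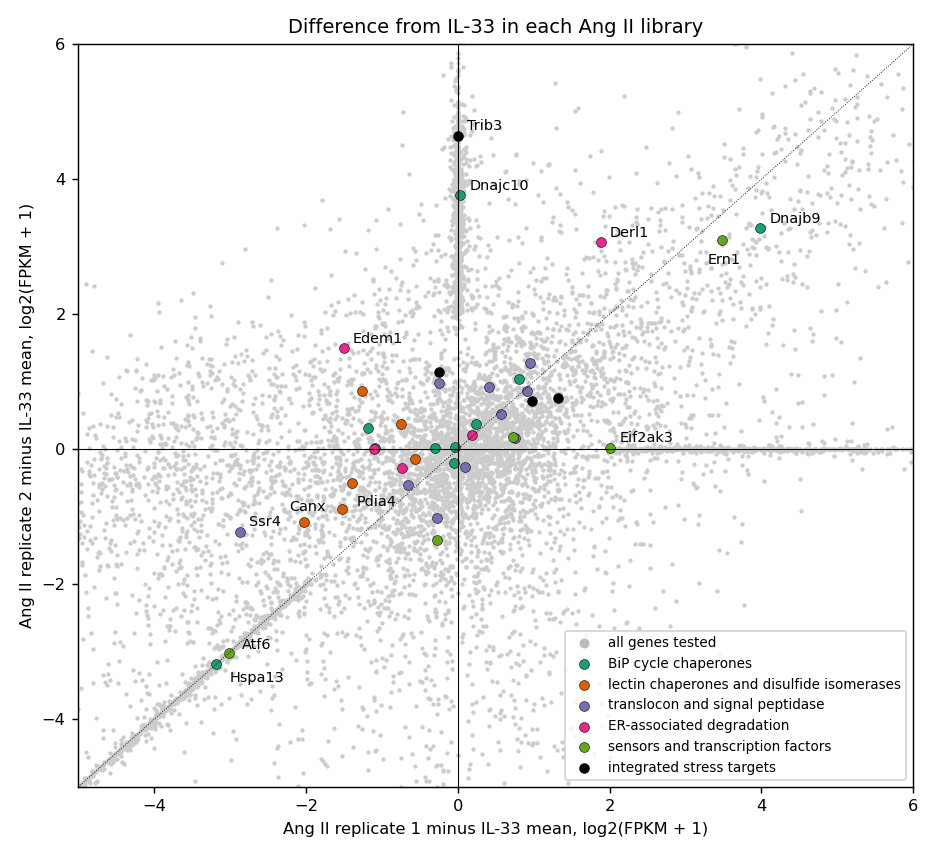
Difference of Ang II replicate 1 (horizontal) and replicate 2 (vertical) from the IL-33 mean, on the log2(FPKM + 1) scale, for the tested members coloured by role and for all tested genes in grey (319 genes fall outside the axes, and the dotted line marks equal differences). Dnajb9 and Ern1 lie far to the upper right and Hspa13 and Atf6 to the lower left near the dotted line, Trib3 and Dnajc10 lie high on the vertical axis because only replicate 2 differed, and Edem1 has opposite signs.

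Other genes of the same pathway were listed by function. Of 143 such genes 123 were tested, of which 35 were higher in both (28.5%) and 45 lower (36.6%), near the 24.4% and 33.5% of all tested genes. At least 2-fold gaps were found for 9 higher (7.32%) and 14 lower (11.4%), below the 8.81% and 17.3% of all. Their median log2 fold change was -0.11, and limma called 0 at the adjusted threshold and 9 at an unadjusted p under 0.05 (7.32%, beside 13.6% of all). Of 17 further foldases and quality control genes, 7 were higher in both and 8 lower (3 and 2 by at least 2-fold), with a median of -0.07. The most abundant, Ero1l, which encodes the oxidase that recharges disulfide isomerase, stood at 579 and 579.97 FPKM with Ang II against 487 and 484 FPKM with IL-33. Sdf2, a paralog of Sdf2l1, stood at 174 and 219 FPKM against 89.6 and 86.6 FPKM, and Fkbp2, a prolyl isomerase gene, at 74.9 and 49.3 FPKM against 103.95 and 103 FPKM. Ppib, the gene of the prolyl isomerase cyclophilin B, stood at 76.7 and 104 FPKM against 31.1 and 28.7 FPKM. Ero1l, Sdf2 and Ppib were thus higher in both Ang II libraries and Fkbp2 lower.

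Of 19 tested targeting and membrane insertion genes, 9 were higher in both (47.4%, beside 24.4% of all tested genes) and 3 lower (15.8%, beside 33.5%), with a median of 0.33. By at least 2-fold, 3 were higher (15.8%) and 1 lower (5.26%), beside 8.81% and 17.3% of all tested genes. Of the 19, 15 averaged 20 FPKM or more, and of all genes at that level 29.6% were higher and 36.1% lower in both (8.16% and 10.2% by at least 2-fold). The difference of this list from other genes was not tested. The summed level of the list was 2028 and 1617 FPKM with Ang II against 1396 and 1402 FPKM with IL-33. Emc4, a subunit gene of the ER membrane protein complex, stood at 294 and 150.3 FPKM against 60.9 and 57.6 FPKM. Tmem208 stood at 126 and 73.4 FPKM against 16.4 and 14.3 FPKM, and Srprb, the gene of the membrane subunit of the signal recognition particle receptor, at 74.3 and 51.1 FPKM against 22.2 and 23.5 FPKM. These 3 were at least 2-fold higher in each Ang II library. The more abundant Bcap31 stood at 556 and 541 FPKM against 487 and 489 FPKM, Spcs3, of the signal peptidase, at 165 and 105 FPKM against 202 and 202 FPKM, and Srp14, of the signal recognition particle, at 60.2 and 135 FPKM against 184 and 185 FPKM. The list therefore held abundant genes on both sides.

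Of 12 tested oligosaccharyltransferase genes, which encode the N-glycosylation enzyme, 2 were higher in both (16.7%) and 6 lower (50%), 0 and 1 of them by at least 2-fold, with a median of -0.43. Among all tested genes too, more were lower in both (33.5%, with 17.3% by at least 2-fold) than higher (24.4%, with 8.81% by at least 2-fold). Among genes averaging 20 FPKM or more, as 11 of the 12 did, 36.1% were lower and 29.6% higher (10.2% and 8.16% by at least 2-fold). Ddost stood at 279.6 and 302 FPKM with Ang II against 434 and 431 FPKM with IL-33, and Dad1 at 225 and 217 FPKM against 278 and 266 FPKM. Krtcap2 stood at 245 and 146 FPKM against 203 and 204 FPKM, on both sides. Of 17 further degradation genes, 3 were higher and 8 lower (1 and 2 by at least 2-fold), with a median of -0.18. Selenos stood at 402 and 469.7 FPKM against 502 and 522 FPKM, Vcp, the gene of the ATPase that extracts substrates, at 106 and 53.3 FPKM against 115 and 121 FPKM, and Ubxn4, which anchors it to the ER, at 121 and 99.5 FPKM against 58.3 and 55.2 FPKM. Of these 3 only Ubxn4 was higher with Ang II.

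ER to Golgi transport genes were close to balanced, with 9 higher and 7 lower of 27 tested (1 and 3 by at least 2-fold) and a median of 0.05. For this and the next lists, 24.4% of all tested genes were higher in both and 33.5% lower (8.81% and 17.3% by at least 2-fold). The cargo receptor gene Tmed2 stood at 434 and 348 FPKM with Ang II against 409 and 404 FPKM with IL-33, and Surf4 at 278 and 288 FPKM against 271 and 273 FPKM. Tmed9 stood at 273 and 223 FPKM against 166 and 156 FPKM, and Mcfd2, which works with the cargo lectin LMAN1, at 54.04 and 46.4 FPKM against 18.01 and 16.4 FPKM, the only gene of the list at least 2-fold higher in both. Lman1 itself, named here after its values were seen, stood at 0.03 and 6.58 FPKM against 38.6 and 37.3 FPKM, at least 2-fold lower in both. Tmed9 and Mcfd2 were thus higher with Ang II, and Tmed2 and Surf4 differed less. Of 19 tested further ATF4 and CHOP targets, 3 were higher in both (15.8%) and 6 lower (31.6%), 0 and 2 of them by at least 2-fold, with a median of -0.38, beside 24.4% and 33.5% of all tested genes. Besides Ero1l, which this list also holds, its most abundant genes were Slc3a2, of an amino acid transporter (491 and 259 against 353 and 356 FPKM), and Nars, a tRNA synthetase gene (171 and 63.1 against 73.8 and 75.2 FPKM). Both of these had one Ang II library on each side. Of 13 further sensor and eIF2 control genes, 3 were higher and 7 lower (1 and 3 by at least 2-fold), with a median of -0.56. Tmbim6, which encodes the ER calcium channel regulator BI-1, stood at 327 and 361 FPKM against 258 and 263 FPKM, Nfe2l2 at 63.3 and 35.4 FPKM against 70.2 and 70.7 FPKM, and Creb3 at 36.4 and 68.9 FPKM against 57.9 and 62.7 FPKM.

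**Figure D3:**
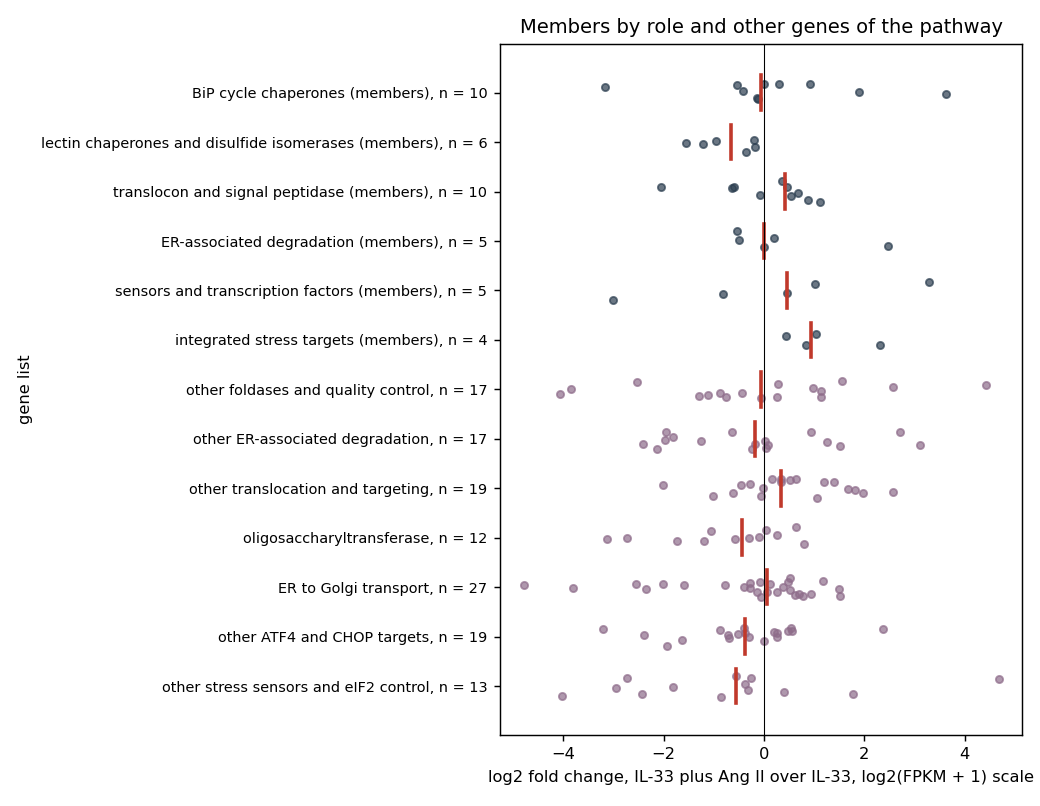
Log2 fold change, IL-33 plus Ang II over IL-33 on the log2(FPKM + 1) scale, of each tested gene (points) and the median of each list (red bars), for the 6 roles of the members in dark points and the 7 other lists in purple points; vertical scatter within a list has no meaning. Every list except that of the disulfide isomerases and that of the integrated stress targets has points on both sides of 0, and the medians lie between -0.65 and 0.94.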

How the data were processed

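RNA-seq of 4 mouse lung ILC2 libraries was used, 2 with IL-33 plus Ang II and 2 with IL-33. Per the labels' protocols, cDNA of 500 cells per condition was made with a SMARTer kit, amplified by PCR and sequenced in pairs, with no molecular identifiers named, so PCR copies count as reads. The authors deposited FPKM per gene with 2 decimals, per the file headers. The submitters' processing notes name mm10, HISAT, StringTie and edgeR without saying their versions or roles, and the annotation is not given in the sources used here. No count model was used, since FPKM are normalized values, and the depth is known only as an estimate.

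Columns were matched to samples by name. Gene positions come from GENCODE M21 (GRCm38, the assembly of mm10). The IL-33 libraries were averaged to 1 sample, and genes averaging 1 FPKM or more over these 3 columns were tested on log2(FPKM + 1) with limma 3.58.1 in R 4.3.3 (lmFit, eBayes with a trend, two-sided, Benjamini-Hochberg over all genes tested). No label names separate mice or cultures. The p-values therefore measure only how these samples vary, possibly for technical reasons. A gene was described as higher (or lower) in both where each Ang II value exceeded (or fell under) each IL-33 value, and as 2-fold where the gap was at least 1 on the log2 scale. Members with a mean of at least 20 FPKM, a 2-fold gap or a value under 1 FPKM are named, as are the 3 most abundant genes of each pathway list and those 2-fold higher with a mean of at least 20 FPKM. Members and lists were chosen with earlier results of these data known. Alternatives covered the pseudocount, the filter, 3 scalings, the IL-33 pair as replicates with and without a block, and each library left out.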

Additional observations from a re-analysis of the deposited data

How the results depend on the processing

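The count of 0 genes passing the adjusted threshold held under a pseudocount of 0.1 FPKM, a mean of at least 5 FPKM, no filter, all 3 scalings and without either IL-33 library. With the IL-33 pair taken as 2 replicates and no block, limma called 1547 genes, 457 higher and 1090 lower, among them the members Dnajb9 (limma log2 fold change 3.63), Ern1 (3.29), Hspa13 (-3.18) and Atf6 (-3.02). That fit takes the spread of a pair that differed by about the estimated counting noise. With the replicate number as a block it called 0 genes. The deviations of same-numbered libraries from their group means correlated at -0.019. With IL-33 libraries so nearly alike, that value cannot decide whether the replicate numbers pair the samples. The count of members at least 2-fold higher lay between 3 and 9 and that of members at least 2-fold lower between 4 and 11 when 1 library was left out, the extremes coming without Ang II replicate 1 (9 higher) and without Ang II replicate 2 (11 lower). Leaving out an Ang II library gives values with no test. With a mean of at least 5 FPKM 2 members were lower, because Hspa13 and Atf6 are not tested there. Scaling to the same sum reversed Creld2 (0.063) and Edem1 (0.067) and moved the median of all genes to 0.07, and no scaling moved it by over 0.1. With 1 library left out, the log2 fold change took both signs for Calr (-1.26 to 0.86), Creld2 (-0.041 to 0.025), Ddit3 (-0.25 to 1.14), Dnajc3 (-1.18 to 0.32), Edem1 (-1.504 to 1.497), Manf (-0.298 to 0.016), Pdia6 (-0.75 to 0.38), Sdf2l1 (-1.091 to 0.023), Sec61b (-0.26 to 0.10), Ssr2 (-0.25 to 0.99) and Syvn1 (-1.105 to 0.009). Of 395 recomputed log2 fold changes of members that had a test, 387 kept their direction and side of the threshold, 4 passed it and 4 reversed.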
